A study of Mus musculus with 32 samples.

Results

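The genes described here are 10 molecules through which a macrophage restrains or helps T cells: the PD-1 ligands Cd274 (PD-L1) and Pdcd1lg2 (PD-L2), the B7 costimulators Cd80 and Cd86, the receptor Cd40, the ICOS ligand Icosl, the ectonucleotidases Nt5e (CD73) and Entpd1 (CD39), and the receptor Havcr2 (Tim-3) with its ligand Lgals9 (galectin-9). They were picked by name, and each was read from the brightest probe set that the platform annotation assigns to that symbol alone. All 10 were found among the 17097 genes of the HT_MG-430_PM array and among the 22180 genes of the Mouse Gene 2.0 ST array. All 10 also passed the filter on dim genes in each of the 3 experiments.

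PD-L1 and PD-L2 on a myeloid cell bind PD-1 on T cells and dampen their activation. CD80 and CD86 bind CD28, which activates, and CTLA-4, which inhibits, while CD40 receives the CD40 ligand signal from T cells and ICOSL engages ICOS. CD39 turns extracellular ATP into AMP, and CD73 turns AMP into adenosine, which suppresses T cells. Tim-3 and galectin-9 form a further inhibitory axis. Interferon-gamma induces PD-L1 and CD40 in macrophages. Myd88 is the adaptor of the interleukin-1 receptor and most Toll-like receptors, and TNFR1 (gene Tnfrsf1a) is the main receptor for TNF. Both feed the NF-kB pathway.

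RNA came from mouse tumour-associated macrophages in 32 samples, 1 array each. In the first experiment CD11b+ cells were enriched on magnetic beads from neuroblastoma that arises spontaneously in the peritoneum of Th-MYCN transgenic mice (3 arrays) and from EG7 tumours transplanted into wild-type (WT) mice (3 arrays). EG7 is a mouse T-cell lymphoma line, and its tumours are called thymomas in the labels. In the second experiment the same kind of enrichment was applied to EG7 tumours in WT hosts and in Myd88-/- hosts, which lack Myd88 in all host cells (5 arrays each). In the third, 2 populations were sorted from EG7 tumours: population A (CD11b+, Ly6C+, MHCII-) and population C (CD11b+, Ly6C-, MHCII+). Their hosts were WT, TNFR1-/-, Myd88flox/flox; Tie2-Cre (here Myd88 cKO) or TNFR1-/-; Myd88flox/flox; Tie2-Cre (here double KO), with 2 arrays per population and genotype. Tie2-Cre acts in endothelium and in blood cells, so the conditional deletion is not limited to macrophages, and the EG7 tumour cells carry none of these deletions. The ages and strains of the hosts are not given in the labels. A glioma model named in the study design was not analysed here. Nothing in the labels ties the arrays of a group to different mice, so each p-value reflects array-to-array spread that could be technical in part.

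Values are log2 signals after robust multi-array averaging (RMA), and a difference of 1 is a change of 2-fold. The median signal of an array lay between 3.84 and 3.93 for the neuroblastoma and EG7 arrays of the first experiment, between 2.95 and 3.03 for the second, and between 5.31 and 5.50 for the third. Levels are therefore compared only within an experiment, and never between genes, whose probes differ. Myd88 signal was 7.47 to 7.83 in Myd88-/- hosts against 8.11 to 8.57 in WT hosts, and 7.49 to 8.76 in the 8 conditional deletion arrays against 9.22 to 10.05 in the other 8. In C it was 7.49 to 7.53 in the Myd88 cKO and higher, 7.97 to 8.76, in the double KO. In A it was 7.70 to 7.84 and 7.78 to 8.32, which overlap. The signal left thus differed between the deletion genotypes, and the reason was not tested. Tnfrsf1a was 7.51 to 8.20 in the 8 TNFR1-/- arrays and 7.81 to 8.55 in the others, and whether its probes lie in the deleted part is not known, so it checks nothing. Macrophage genes (11 measured, Csf1r, Cd68 and Mertk among them) averaged 11.19 to 11.53 in neuroblastoma and 11.36 to 11.53 in EG7 tumours. The bead-enriched arrays also carried other cells: sympathetic neuron genes averaged 7.91 to 8.84 in neuroblastoma against 3.71 to 3.77 in EG7, and 10 of 11 were higher. Neuroblastoma array 2 stood apart, with natural killer genes at 6.64 against 3.30 and 4.20 on the other neuroblastoma arrays. In the sorted arrays Ly6c2 was 11.31 to 12.93 in A and 7.88 to 9.99 in C, and the MHC class II gene H2-Ab1 was 9.21 to 11.98 in A and 12.30 to 12.91 in C, so class II RNA was lower in A but well above the array medians.

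The members were tested with limma across all genes of an experiment and called at a Benjamini-Hochberg adjusted p under 0.05. Between A and C, averaged over genotypes, 7 of 10 were called (1 higher in A, 6 lower), where 32.3% of all genes tested were called (11.1% higher and 21.3% lower). Between neuroblastoma and EG7 1 of 10 was called (Entpd1, higher), against 14.7% of all genes, and between Myd88-/- and WT hosts 1 of 10 (Nt5e, higher), against 1.44%. Loss of TNFR1, taken over 4 arrays against 4, called 0 of 10 members in A (0.182% of all genes) and 1 in C (Nt5e, lower; 1.09%). The Myd88 cKO called 2 in A (Pdcd1lg2 and Nt5e, both higher; 4.67%) and 0 in C (0.0182%). Double KO minus WT, with 2 arrays a side, called 0 of 10 in A (5.75%) and 0 in C (0.309%). At an unadjusted p under 0.05, limma's test passed 5 members for TNFR1 loss in A (13.8% of all genes), 1 for the Myd88 cKO in C (4.67%), 2 for the double KO in A (24.8%) and 3 in C (6.17%). In the tests of whether an effect differs between A and C, 0 of 10 members were called for TNFR1 loss (0.103% of all genes) and 0 for the Myd88 cKO (0% of all genes), with 2 and 3 members under an unadjusted p of 0.05, against 6.5% and 9.27% of all genes. Arrays of the groups did not overlap for 2 members between tumour models (36.1% of all genes), 1 between hosts (3.03%), 0 between A and C (5.98%), 0 for TNFR1 loss in A (2.52%) and 2 in C (6.38%), and 2 each for the Myd88 cKO in A (7.38%) and C (3.48%). Most of these counts are too small to set against their backgrounds, and the share of 7 in 10 between A and C is read against a background that was itself high.

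**Figure D1:**
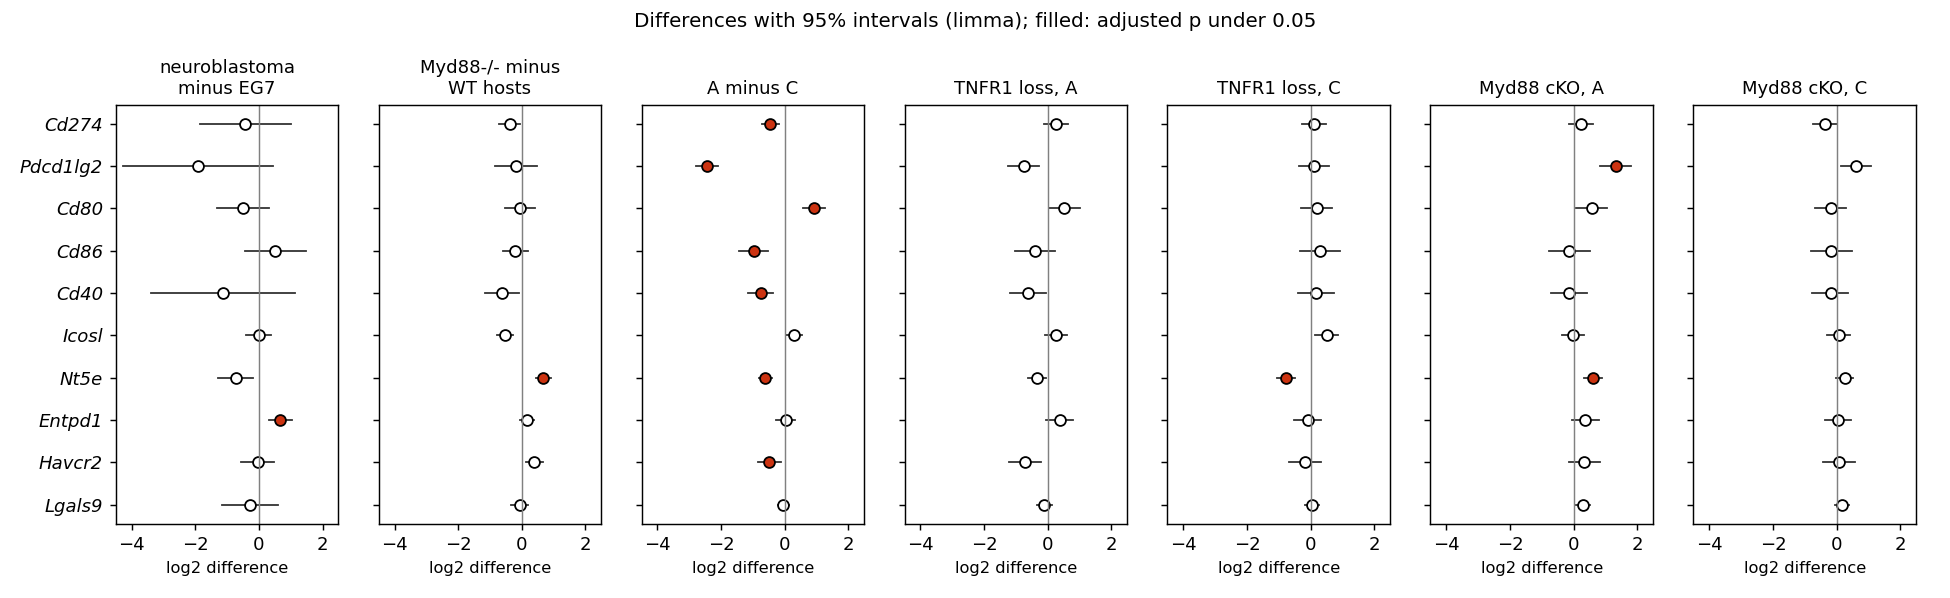
Differences of the 10 members (rows) in 7 comparisons (panels), as log2 difference on the horizontal axis, with points for limma estimates and lines for 95% confidence intervals; filled points have an adjusted p under 0.05. Pdcd1lg2 at -2.45 between A and C is the widest called difference, and Nt5e is filled in 4 panels with both signs.

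The genes of PD-L1 and PD-L2 are neighbours on chromosome 19, with start sites 43.5 kb apart. Their promoter windows are shown because the genes behaved differently in these cells, together with that of Nt5e, the member called in the most comparisons. Each runs 5′ to 3′ on the + strand from 250 bases before to 50 bases after the start site, taken from RefSeq on GRCm38.p6. Capitals mark CG dinucleotides.
Cd274, chr19:29367188-29367487: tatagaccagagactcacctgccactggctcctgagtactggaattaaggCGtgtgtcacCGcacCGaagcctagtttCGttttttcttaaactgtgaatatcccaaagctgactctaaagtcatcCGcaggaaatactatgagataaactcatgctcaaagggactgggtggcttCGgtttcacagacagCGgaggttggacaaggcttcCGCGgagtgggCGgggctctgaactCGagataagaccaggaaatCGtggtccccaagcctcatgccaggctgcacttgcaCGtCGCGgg
Pdcd1lg2, chr19:29410669-29410968: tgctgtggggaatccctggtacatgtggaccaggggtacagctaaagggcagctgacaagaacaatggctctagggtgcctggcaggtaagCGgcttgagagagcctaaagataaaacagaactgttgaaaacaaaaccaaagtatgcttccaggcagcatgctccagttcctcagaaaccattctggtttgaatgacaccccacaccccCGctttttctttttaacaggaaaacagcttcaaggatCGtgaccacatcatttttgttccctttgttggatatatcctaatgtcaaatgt
Nt5e, chr9:88327359-88327658: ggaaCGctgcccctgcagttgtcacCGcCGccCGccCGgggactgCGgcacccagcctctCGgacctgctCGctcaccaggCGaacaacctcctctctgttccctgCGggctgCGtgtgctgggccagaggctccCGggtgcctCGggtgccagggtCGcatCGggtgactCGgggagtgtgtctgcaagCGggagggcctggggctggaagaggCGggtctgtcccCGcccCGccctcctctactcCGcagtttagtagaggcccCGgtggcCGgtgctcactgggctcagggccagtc
Windows of this length were found for 8 of the 10 members (Entpd1 has 2), and none for Cd86 and Cd40. The window of Cd274 holds 15 CG pairs and that of Pdcd1lg2 holds 3, while that of Nt5e holds 23, at a GC content of 71.0%. The median over 32851 RefSeq promoter windows is 7, with quartiles of 3 and 20. Cd80 and Havcr2 resemble Pdcd1lg2 in this respect, with 3 pairs each, and Icosl has 26. The letters of 3 short elements were searched on both strands. The core of the interferon element ISRE (GAAANNGAA, in 8.56% of all windows) was found in the Cd274 window at -76 to -68 (counted from the start site, in lower case in the sequence above apart from its CG pair), and 2 times in the Lgals9 window. For NF-kB only the letters GGGNNTTCC (5.82%) were searched, and they were found in the Lgals9 window alone. Other forms of the NF-kB element were not searched, so no window is shown to lack one. The Pdcd1lg2 window, for example, holds ggggaatccc near its 5′ end, which these letters cannot match. The cAMP element (TGACGTCA, 1.79%) was in none of the 9 member windows. These are matches of letters in short windows and say nothing of elements outside them.

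PD-L2 was the member that differed most between the sorted populations. In population C its signal was 9.16 and 8.62 in WT hosts, 8.86 and 9.25 in TNFR1-/-, 9.47 and 9.66 in the Myd88 cKO, and 9.30 and 9.90 in the double KO. In population A it was 6.61 and 5.70 in WT hosts, 6.41 and 5.95 in TNFR1-/-, 7.88 and 8.63 in the Myd88 cKO, and 6.69 and 6.74 in the double KO. All A arrays lay below all C arrays except 1 Myd88 cKO array of A, at 8.63, which met the lowest C array at 8.62. The difference over the 4 genotypes was -2.45 ± 0.16 (SE; 8 arrays each; 5.46-fold; adjusted p = 2.36e-07, limma). Within genotypes it was -2.73 in WT, -2.87 in TNFR1-/- and -2.89 in the double KO (adjusted p from 0.000132 to 0.00025, limma), and -1.31 ± 0.32 in the Myd88 cKO, which missed the threshold (adjusted p = 0.052). Of all genes, 13.5%, 12.6%, 5.46% and 1.97% were called between A and C in WT, TNFR1-/-, double KO and Myd88 cKO hosts. In these bulk samples fewer cells of a type and less RNA per cell cannot be told apart.

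Within population A the Myd88 cKO arrays were the highest. With the deletion Pdcd1lg2 rose by 1.32 ± 0.23 over 4 arrays against 4 (2.5-fold; adjusted p = 0.00666, limma), and by 2.10 ± 0.32 in the Myd88 cKO alone against WT (adjusted p = 0.00654, in a comparison that called 3.18% of all genes). The double KO arrays stayed at 6.69 and 6.74, which was 0.56 ± 0.32 above WT (adjusted p = 0.297). The double KO effect minus the sum of the single effects was -1.56 ± 0.45, which did not pass over all genes (unadjusted p = 0.00381, adjusted p = 0.266, limma). In population C the Myd88 cKO difference was 0.61 ± 0.23, with every deletion array above every other (adjusted p = 0.919). The test of the difference between the A and C effects gave 0.71 ± 0.32 (adjusted p = 0.533), so the data do not show that the effects differ. In a fit of the 8 arrays of A alone the rise of 1.32 kept its size but had an adjusted p of 0.084. TNFR1 loss in A gave -0.76 ± 0.23 (adjusted p = 0.169), -0.98 without WT array 2 of A (adjusted p = 0.0282) and -0.53 without WT array 1 of A (adjusted p = 0.223).

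The average of the macrophage genes moved with PD-L2 in population A, but not every gene on the list did. With the Myd88 cKO 5 of 11 rose in A, the complement genes C1qa (1.40), C1qb (1.76) and C1qc (1.91) among them. Csf1r in A was 9.31 to 9.90 in the Myd88 cKO and 9.64 to 10.32 in WT. It was 8.90 to 9.57 in the double KO and 8.68 to 9.11 in TNFR1-/-. The 11 genes averaged 9.89 and 10.31 in the Myd88 cKO of A, against 8.48 to 9.35 in the other 6 A arrays and 10.47 to 10.80 in C. Over the 8 A arrays Pdcd1lg2 followed this average with Pearson r = 0.98 and Spearman rho = 0.98 (r = 0.92 over the 6 arrays outside the Myd88 cKO and 0.997 without the 2 arrays farthest from the median). Over the 8 C arrays r was -0.20 and rho -0.16 (r = -0.065 without the 2 farthest and -0.64 over the 6 arrays outside the Myd88 cKO). Arrays of a group share a genotype, the relation was looked for after the values were seen, and its part in the genotype difference was not tested. Genes of other cells differed in A as well. Endothelial genes averaged 6.16 and 5.95 in the Myd88 cKO of A and 5.35 to 5.64 in the other 6 A arrays, and of 8 tested 1 was called, Cdh5, at 7.84 to 8.04 in the Myd88 cKO, 6.40 to 6.69 in WT, 5.90 to 6.13 in the double KO and 5.15 to 5.59 in TNFR1-/-. Of 8 fibroblast genes 2 were called, both higher, and of 12 T-cell genes 4, all higher. Their part in the rise of Pdcd1lg2 was not tested either.

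**Figure D2:**
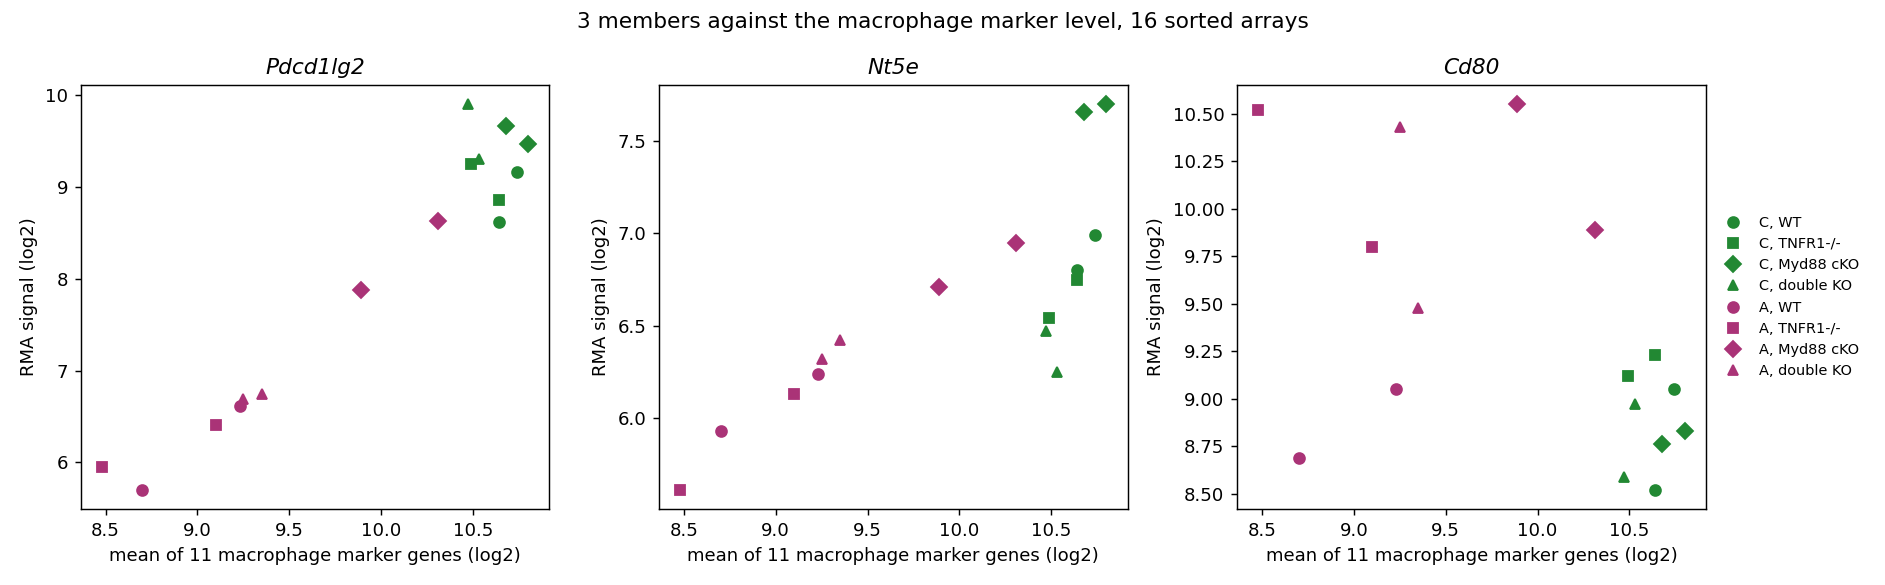
RMA signal (log2) of Pdcd1lg2, Nt5e and Cd80 on the vertical axes against the mean log2 signal of 11 macrophage genes, 1 point per sorted array; colour gives the population and shape the genotype. In population A, Pdcd1lg2 and Nt5e climb with the macrophage level (r = 0.98 and 0.99). For Cd80 in A the r of 0.21 depends on the arrays counted. It was 0.75 without the 2 arrays farthest from the median macrophage level and -0.12 without the Myd88 cKO.

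PD-L1 differed far less. In population C its 8 arrays ran from 8.63 to 9.35, and in population A from 7.80 to 8.89, with the ranges overlapping. The mean difference was -0.45 ± 0.13 (1.37-fold lower in A; adjusted p = 0.0142, limma). It was called within WT hosts alone, where A read 8.33 and 7.80 and C read 9.18 and 8.71 (-0.88 ± 0.25; adjusted p = 0.0343), and was -0.15 ± 0.25 in the double KO (adjusted p = 0.872). When the arrays were quantile normalized again the mean difference was -0.24 ± 0.09 and was not called (adjusted p = 0.063). Neither TNFR1 loss nor the Myd88 cKO gave a called change of Cd274 in A (0.25 ± 0.18 and 0.22 ± 0.18) or in C (0.10 ± 0.18 and -0.37 ± 0.18).

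In the bead-enriched cells both PD-1 ligands varied most within neuroblastoma. Cd274 was 8.45, 10.90 and 8.92 in neuroblastoma and 9.77, 9.87 and 9.90 in EG7 tumours. Pdcd1lg2 was 3.64, 8.01 and 5.40 in neuroblastoma and 7.47, 7.67 and 7.62 in EG7. Array 2 of neuroblastoma lay above all EG7 arrays for both genes and the other neuroblastoma arrays lay below all of them. With all arrays the differences were -0.42 ± 0.60 (adjusted p = 0.683) and -1.90 ± 0.99 (adjusted p = 0.255). Without array 2 they were -1.16 ± 0.20 (adjusted p = 0.0119) and -3.07 ± 0.49 (adjusted p = 0.00942), so the call rests on whether that array is counted. Without array 1 of neuroblastoma they were 0.06 ± 0.56 (adjusted p = 0.962) and -0.88 ± 0.72 (adjusted p = 0.509). On the same array the interferon-gamma response genes averaged 9.03, against 6.68 and 7.05 on the other neuroblastoma arrays and 7.91 to 7.96 in EG7, and B-cell genes averaged 6.45 against 4.31 and 5.62. The part of these genes in the result was not tested.

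**Figure D3:**
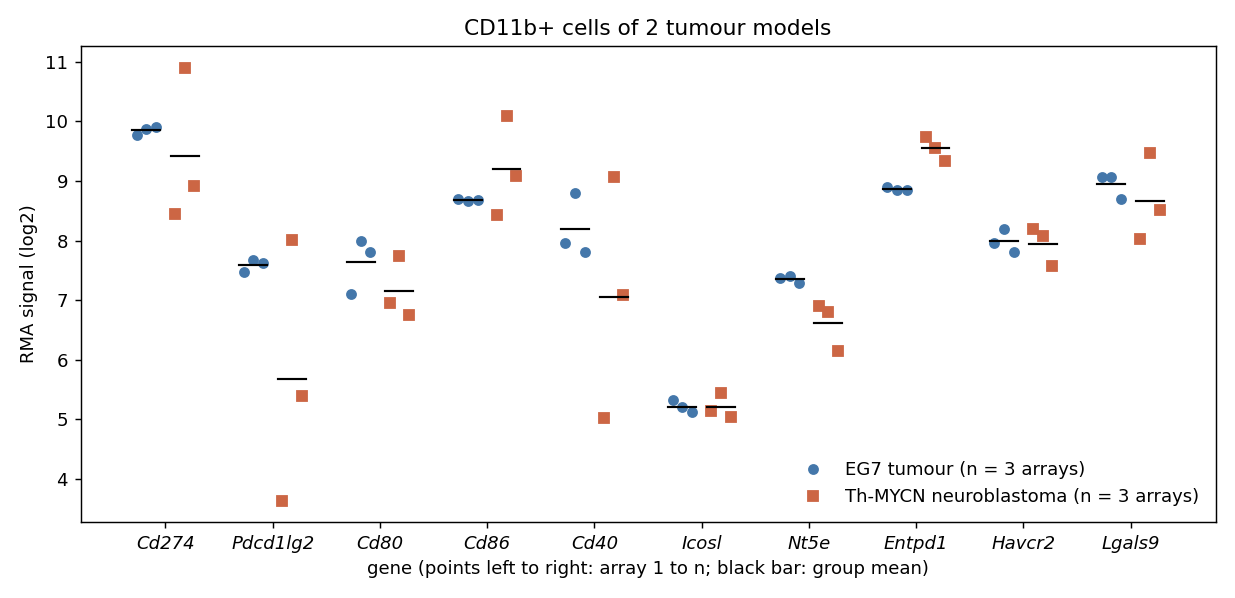
RMA signal (log2) of the 10 members in CD11b+ cells of 3 neuroblastoma arrays (squares) and 3 EG7 tumour arrays (circles), 1 point per array, black bars for group means. Array 2 of neuroblastoma is the top square for Cd274 at 10.90 and Pdcd1lg2 at 8.01, and the Entpd1 squares all lie above the circles.

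In Myd88-/- hosts the PD-1 ligands did not pass the test. Cd274 was 9.74, 9.76, 9.42, 9.53 and 9.73 there and 10.44, 10.22, 10.14, 9.48 and 9.82 in WT hosts (-0.38 ± 0.16; 95% interval -0.72 to -0.05; adjusted p = 0.328). Pdcd1lg2 ran from 6.63 to 7.56 in Myd88-/- hosts and from 6.18 to 8.08 in WT hosts (-0.17 ± 0.30; adjusted p = 0.886). The WT arrays were more spread, and WT array 4 was the lowest of the 5 for 8 of the 10 members (all but Havcr2 and Lgals9), as it was for the interferon-gamma response genes (7.17 against 7.70 to 8.06).

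The B7 costimulators split in opposite directions between the sorted populations. Cd80 was 9.05 and 8.69 in A of WT hosts, 9.80 and 10.52 in TNFR1-/-, 10.55 and 9.89 in the Myd88 cKO, and 10.43 and 9.48 in the double KO. In C it was 9.05 and 8.52, 9.23 and 9.12, 8.83 and 8.76, and 8.97 and 8.59 in the same order. The 6 deletion arrays of A were above all 8 C arrays, and the WT arrays of A lay among them. The mean difference was 0.92 ± 0.16 (1.89-fold higher in A; adjusted p = 0.000559, limma). It was 0.09 ± 0.32 in WT hosts (adjusted p = 0.892), 0.99 in TNFR1-/- (adjusted p = 0.0584), 1.43 in the Myd88 cKO (adjusted p = 0.0387) and 1.18 in the double KO (adjusted p = 0.047). Against WT, Cd80 in A was higher by 1.35 ± 0.32 in the Myd88 cKO (adjusted p = 0.0396), by 1.29 ± 0.32 in TNFR1-/- (adjusted p = 0.0652) and by 1.08 ± 0.32 in the double KO (adjusted p = 0.059). The last was called without WT array 1 of A (1.26; adjusted p = 0.0471) and without double KO array 2 of A (1.56; adjusted p = 0.015), and was 0.61 without double KO array 1 of A (adjusted p = 0.438). Taken over 4 arrays against 4 in A, Cd80 gave 0.57 ± 0.23 for the Myd88 cKO (adjusted p = 0.158) and 0.51 ± 0.23 for TNFR1 loss (adjusted p = 0.329), neither called. The former ran from 0.34 without double KO array 1 of A to 0.81 without double KO array 2 of A (adjusted p = 0.0465). The double effect minus the sum of the single effects was -1.55 ± 0.45 (unadjusted p = 0.00391, adjusted p = 0.266).

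Cd86 and Cd40 were lower in A. Cd86 was 8.29 and 7.96 in A of WT hosts, 8.00 and 6.80 in TNFR1-/-, 7.25 and 8.10 in the Myd88 cKO and 6.97 and 8.23 in the double KO, where C ran from 8.26 to 9.04. The mean difference was -0.98 ± 0.21 (adjusted p = 0.00265, limma), with -0.40 ± 0.42 in WT hosts (adjusted p = 0.562) and -1.58 ± 0.42 in TNFR1-/- (adjusted p = 0.0234). Cd40 was 8.17 and 7.85 in A of WT hosts, 7.22 and 6.37 in TNFR1-/-, 7.06 and 7.48 in the Myd88 cKO and 6.60 and 7.90 in the double KO, where C ran from 7.65 to 8.54. Its mean difference was -0.76 ± 0.19 (adjusted p = 0.00611), with -0.12 ± 0.37 in WT hosts (adjusted p = 0.865) and -1.46 ± 0.37 in TNFR1-/- (adjusted p = 0.0196). Without double KO array 2 of A, the TNFR1 loss difference of Cd40 in A (-0.62 ± 0.26; adjusted p = 0.316) was -0.94 (adjusted p = 0.0426), and without double KO array 1 of A it was -0.29 (adjusted p = 0.785). In WT hosts, then, A and C overlapped for Cd80, Cd86 and Cd40, and the deletion genotypes gave the wider differences. Whether the A minus C difference depends on genotype was tested with limma. For TNFR1 loss it gave 0.32 ± 0.32 for Cd80, -0.69 ± 0.42 for Cd86 and -0.79 ± 0.37 for Cd40 (adjusted p = 0.927, 0.84 and 0.78). For the Myd88 cKO it gave 0.76 ± 0.32 for Cd80, 0.04 ± 0.42 for Cd86 and 0.05 ± 0.37 for Cd40 (adjusted p = 0.5, 0.987 and 0.978). For the double KO it gave 1.09 ± 0.45 for Cd80, -0.65 ± 0.59 for Cd86 and -0.74 ± 0.53 for Cd40 (adjusted p = 0.428, 0.729 and 0.642). None passed. Over the 16 sorted arrays Cd86 and Cd40 rose and fell together (r = 0.94), and each ran against Cd80 (r = -0.77 and -0.82), as a description of arrays that share populations and genotypes.

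**Figure D4:**
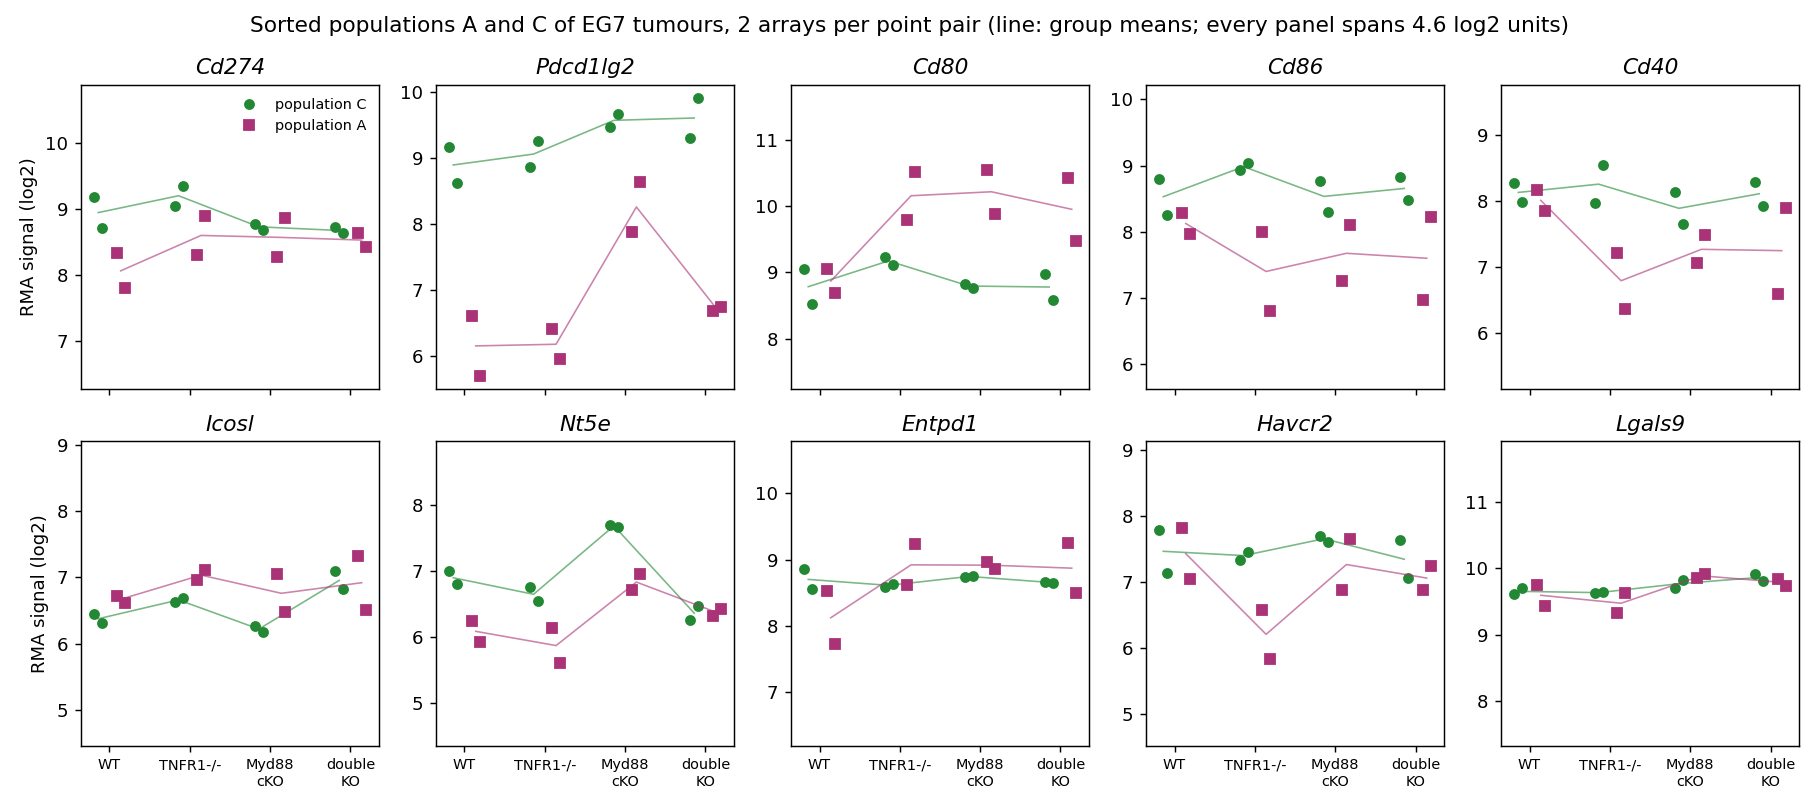
RMA signal (log2) of each member in sorted populations A (squares) and C (circles) by host genotype, 2 arrays per population and genotype, lines joining group means; every panel spans the same number of log2 units. Pdcd1lg2 is lower in A than in C on all arrays within each genotype, with the narrowest gap in the Myd88 cKO. Cd80 is higher in the deletion arrays of A, and Nt5e in C peaks in the Myd88 cKO at 7.70 and 7.66.

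Icosl in A ran from 6.47 to 7.33 and in C from 6.18 to 7.09, with a mean difference of 0.29 ± 0.12 that was not called (adjusted p = 0.0705, limma) but was called after a second quantile normalization (0.40 ± 0.11; adjusted p = 0.0179), without Myd88 cKO array 2 of A (0.37; adjusted p = 0.0285) and without double KO array 2 of A (0.40; adjusted p = 0.00704). It ran from 0.19 to 0.40 over the fits with 1 array left out. In C the 4 arrays with TNFR1 loss, at 6.63, 6.69, 7.09 and 6.82, lay above the other 4, at 6.44, 6.31, 6.26 and 6.18. That difference of 0.51 ± 0.17 had an adjusted p of 0.289, and of 0.0164 in a fit of the 8 C arrays alone.

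In Myd88-/- hosts Icosl and Cd40 were the costimulators nearest to a call. Icosl was 4.69, 4.83, 4.95, 4.46 and 4.74 there and 5.38, 5.52, 5.17, 4.93 and 5.32 in WT hosts, overlapping through WT array 4 alone. The difference of -0.53 ± 0.12 had an adjusted p of 0.0503 and, without WT array 4, was -0.61 ± 0.11 (adjusted p = 0.0114). A second Icosl probe set, with a mean signal of 2.66 near the level of the filter on dim genes, gave -0.03 ± 0.09 (adjusted p = 0.937). Cd40 was 7.44, 7.31, 6.87, 7.38 and 7.19 in Myd88-/- hosts and 8.44, 8.23, 8.14, 6.80 and 7.73 in WT hosts. The difference of -0.63 ± 0.25 (adjusted p = 0.316) was -0.90 ± 0.15 without WT array 4 (adjusted p = 0.00809), and -0.49 without WT array 1. Cd80 and Cd86 differed by -0.05 ± 0.22 and -0.20 ± 0.18, and neither was called (95% intervals -0.54 to 0.43 and -0.59 to 0.19). Between tumour models none of the costimulators was called. Cd40 was 5.03, 9.07 and 7.08 in neuroblastoma and 7.96, 8.80 and 7.81 in EG7 (-1.13 ± 0.94; adjusted p = 0.474), and array 2 was again the highest. Cd86 was also highest on that array (8.43, 10.09 and 9.09, against 8.66 to 8.70 in EG7).

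**Figure D5:**
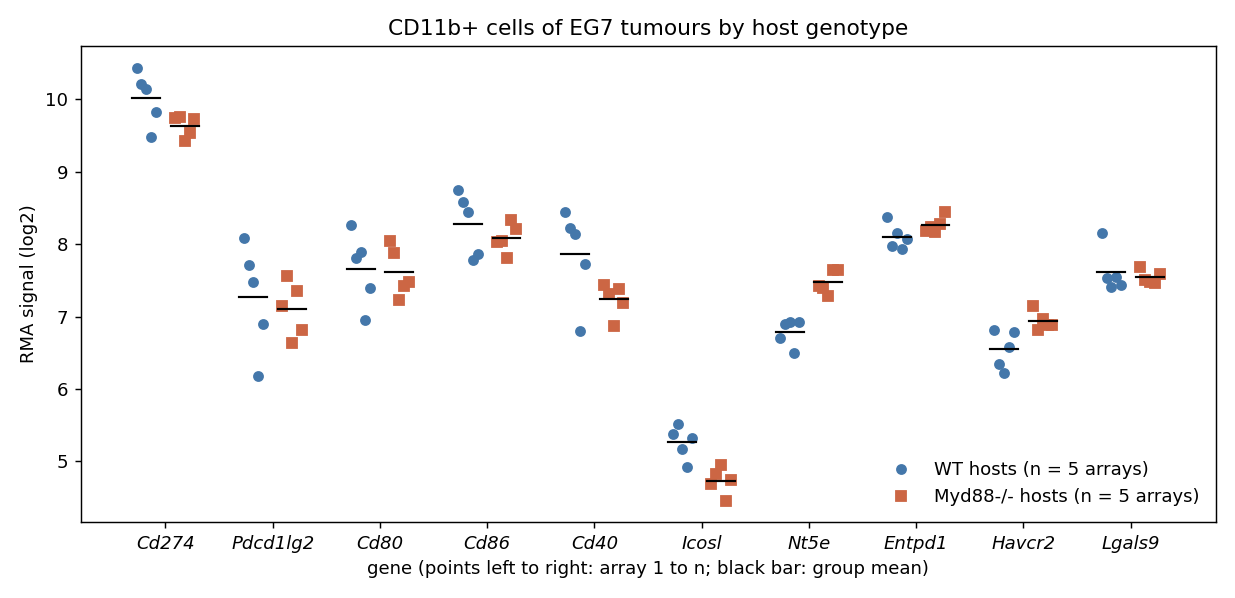
RMA signal (log2) of the 10 members in CD11b+ cells of EG7 tumours in WT hosts (circles) and Myd88-/- hosts (squares), 5 arrays each, 1 point per array, black bars for group means. The groups separate for Nt5e, at 6.50 to 6.93 in WT and 7.29 to 7.64 in Myd88-/- hosts, and overlap for the other members.

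CD73 was the member that changed with Myd88 in more than 1 experiment. In CD11b+ cells Nt5e was 7.42, 7.39, 7.29, 7.64 and 7.64 in Myd88-/- hosts and 6.71, 6.90, 6.92, 6.50 and 6.93 in WT hosts, with every Myd88-/- array above every WT array. The difference was 0.68 ± 0.11 (1.6-fold; adjusted p = 0.00571, limma), and it was called whichever array was left out (0.61 to 0.73). A second, dimmer probe set of Nt5e gave 0.39 ± 0.09 (adjusted p = 0.0745). Nt5e and Myd88 lie on the same chromosome, 9, with start sites 31.0 Mb apart. Monocyte genes averaged 8.92 to 9.16 in Myd88-/- hosts and 9.42 to 9.57 in WT hosts, and 3 of 6 fell (Ly6c1, Ccr2 and Plac8), while macrophage genes averaged 10.54 to 10.66 and 10.59 to 10.76, with 0 of 11 called. The part of the monocyte genes in the result was not tested. As a sign of RNA quality, the gap between 3′ and 5′ actin probe sets was 0.64 to 0.78 in Myd88-/- hosts and 0.54 to 0.68 in WT hosts.

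In the sorted populations Nt5e was 6.24 and 5.93 in A of WT hosts, 6.13 and 5.61 in TNFR1-/-, 6.71 and 6.95 in the Myd88 cKO and 6.32 and 6.42 in the double KO. In C it was 6.99 and 6.80, 6.75 and 6.54, 7.70 and 7.66, and 6.25 and 6.47 in the same order. The A minus C difference was -0.81 in WT, -0.77 in TNFR1-/- and -0.85 in the Myd88 cKO (adjusted p = 0.0125, 0.0144 and 0.0348, limma). In the double KO they did not differ beyond the spread (0.01 ± 0.19; 95% interval -0.39 to 0.41; adjusted p = 0.987). The mean difference over genotypes was -0.61 ± 0.09 (adjusted p = 0.000211).

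In A the Myd88 cKO raised Nt5e by 0.62 ± 0.13 (4 arrays against 4, all 4 above; 1.54-fold; adjusted p = 0.0177, limma). The adjusted p was 0.135 in a fit of A alone, 0.0532 without TNFR1-/- array 2 of A (0.49) and 0.0939 without Myd88 cKO array 2 of A (0.56). In C, Nt5e fell by 0.79 ± 0.13 with TNFR1 loss (all 4 below; 1.73-fold; adjusted p = 0.00795). The call was lost without TNFR1-/- array 2 of C (-0.73; adjusted p = 0.0598) and without Myd88 cKO array 1 of C (-0.77; adjusted p = 0.0529). Against WT in C, the Myd88 cKO alone gave 0.78 ± 0.19 (unadjusted p = 0.000856, adjusted p = 0.607), TNFR1-/- alone -0.25 ± 0.19 and the double KO -0.54 ± 0.19 (adjusted p = 0.528). The double effect minus the sum of the single effects was -1.07 ± 0.26 (unadjusted p = 0.00115), which did not pass over all genes (adjusted p = 1). The effects of TNFR1 loss in A and C differed by 0.45 ± 0.19 and those of the Myd88 cKO by 0.37 ± 0.19, neither called (adjusted p = 0.728 and 0.561).

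Cell markers moved beside Nt5e here too. In A its 8 arrays had the same order as the macrophage gene average (r = 0.99, and r = 0.98 over the 6 arrays outside the Myd88 cKO, 0.99 without the 2 farthest). In C the relation was r = 0.82 with rho = 0.90 (r = 0.70 without the 2 farthest), over a narrower range of 10.47 to 10.80. Dendritic cell genes in C averaged 6.64 to 6.81 with TNFR1 loss and 6.15 to 6.25 without, and 3 of 9 rose with it: Ccr7 (1.88), Fscn1 (1.01) and Batf3 (0.67). Their part in the fall of Nt5e was not tested. Between tumour models Nt5e was 6.90, 6.81 and 6.15 in neuroblastoma and 7.37, 7.40 and 7.28 in EG7. The groups did not overlap, and the difference of -0.73 ± 0.23 missed the threshold (adjusted p = 0.0785). Dimmer probe sets of Nt5e, with mean signals of 3.92 and 2.71, gave smaller differences of -0.17 and -0.31. T-cell genes, which the EG7 tumour cells also express, averaged 4.02 to 5.14 in neuroblastoma and 6.71 to 6.96 in EG7.

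CD39 was the member called between tumour models. Entpd1 was 9.73, 9.56 and 9.34 in neuroblastoma and 8.90, 8.85 and 8.85 in EG7, with every neuroblastoma array above. The difference was 0.68 ± 0.16 (1.6-fold; adjusted p = 0.0327, limma), and a second probe set gave 0.62 ± 0.20 (adjusted p = 0.0832). The size was 0.58 to 0.78 whichever array was left out, but the call held in 1 of these 6 fits, without neuroblastoma array 3. Endothelial genes averaged 7.67 to 8.81 in neuroblastoma and 6.39 to 7.01 in EG7, and 6 of 9 were higher, Kdr (2.51) and Emcn (2.55) among them. Fibroblast genes averaged 7.67 to 8.91 in neuroblastoma and 6.63 to 7.26 in EG7, and 3 of 8 were higher. The part of either list in the Entpd1 difference was not tested. In the other experiments Entpd1 gave no call. It differed by 0.16 ± 0.10 between hosts (adjusted p = 0.558) and by 0.03 ± 0.14 between A and C (adjusted p = 0.89). In A it was 8.52 and 7.72 in WT hosts, the lowest group mean, and 8.49 to 9.25 in the 6 deletion arrays. Double KO minus WT there was 0.75 ± 0.27, with an adjusted p of 0.112, and single arrays moved it both ways. It was 1.15 without WT array 1 (adjusted p = 0.0232), 0.35 without WT array 2 (adjusted p = 0.465), 0.37 without double KO array 1 (adjusted p = 0.61) and 1.13 without double KO array 2 (adjusted p = 0.0375).

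Tim-3 gave a call between A and C that was lost in most fits with 1 array left out, and galectin-9 gave none. Havcr2 in A was 7.81 and 7.05 in WT hosts, 6.58 and 5.84 in TNFR1-/-, 6.88 and 7.65 in the Myd88 cKO and 6.88 and 7.24 in the double KO, and in C it ran from 7.06 to 7.79. The TNFR1-/- arrays of A were the lowest of the 16. The mean A minus C difference was -0.48 ± 0.16 (adjusted p = 0.0398, limma). It was -1.19 ± 0.33 within TNFR1-/- hosts (adjusted p = 0.0292) and -0.04 ± 0.33 in WT hosts (adjusted p = 0.959). The mean call was lost in 10 of 16 fits that left out 1 array and after a second quantile normalization (-0.31 ± 0.15; adjusted p = 0.136). In Myd88-/- hosts Havcr2 was 0.39 ± 0.12 higher (adjusted p = 0.17), and between tumour models it differed by -0.04 ± 0.21 (adjusted p = 0.931). Lgals9 stayed between 9.32 and 9.92 over all 16 sorted arrays, with -0.04 ± 0.08 between A and C (95% interval -0.21 to 0.12). A second quantile normalization turned that to 0.21 ± 0.07, with an adjusted p of 0.0314. In C its Myd88-deleted arrays (9.71 to 9.92) all lay above the others (9.61 to 9.70), a difference of 0.17 ± 0.11 (adjusted p = 0.998). In A the Myd88 cKO gave 0.30 ± 0.11 (adjusted p = 0.116), 0.38 without WT array 1 of A (adjusted p = 0.03) and 0.23 without WT array 2 of A.

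Beyond the members, lists of related genes gave the setting. Of all genes, 32.3% were called between A and C, and the counts for interferon-gamma response genes and lymphocyte partners lie under that share. Between A and C, 11 of 20 measured genes for other inhibitory ligands and receptors of myeloid cells were called (4 higher in A, 7 lower; median -0.01, against 0.01 for all genes), with Ceacam1 and Siglece higher by 1.40 and 1.09. Of 13 other costimulatory genes 8 were called (1 higher, 7 lower; median -0.32), with Cd24a higher by 3.74 and Cd48, a ligand of CD2 family receptors, at -0.82. Of 26 genes of ATP and adenosine handling 14 were called (4 higher, 10 lower; median -0.13). The ATP-gated channel P2rx1 was higher by 2.78 and P2rx4 was at -1.33. Of 27 NF-kB genes 16 were called (1 higher, 15 lower; median -0.35), Cxcl1 among them (-1.91), and of 22 interferon-gamma response genes 6 (1 higher, 5 lower; median -0.06), with the class II transactivator Ciita at -1.02 and Nos2 at -1.28. Of 9 lymphocyte partners of the members 2 were called (Lag3 -0.34 and Cd28 0.20). For scale, macrophage genes fell in A for 9 of 11, neutrophil genes rose for 7 of 10, and fibroblast genes rose for 5 of 8.

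In Myd88-/- hosts 16 of 26 NF-kB genes fell and 0 rose (median -0.61, against 0.01 for all genes), with Tnf at -1.38 ± 0.08 (adjusted p = 3.47e-06, limma) and the inhibitor-like factor Nfkbiz at -1.73 ± 0.12 (adjusted p = 6.61e-06). Of 11 other costimulatory genes 3 fell, Tnfsf9 (the 4-1BB ligand) by 1.49 ± 0.12, and the adhesion molecule Icam1 from a mean of 10.32 to 9.32 (SE 0.10). Of 19 inhibitory genes 1 fell (Nectin2, -0.52), and of 23 genes of ATP and adenosine handling 1 (Dpp4, which binds adenosine deaminase in humans, -0.47). None of the 20 interferon-gamma response genes and none of the 7 lymphocyte partners was called. In A the Myd88 cKO called 4 of 27 NF-kB genes, all lower (Nfkbiz -1.21, Nfkbia -0.98), 2 of 20 inhibitory genes (Cd200r1 0.81, Ido1 -0.44), 1 of 26 of ATP and adenosine handling (Slc29a1 0.73), 1 of 22 interferon-gamma response genes (Nos2 0.92) and 0 of 13 costimulatory genes. In C, TNFR1 loss called 2 of 27 NF-kB genes (Sod2 -1.40, Il6 0.89), 3 of 26 of ATP and adenosine handling (with the adenosine transporter Slc29a1 at -0.59 and Dpp4 at 0.65), 1 inhibitory gene (Pilra -1.13), 1 interferon-gamma response gene (Nos2 -1.14) and 0 costimulatory genes. Between tumour models the inhibitory list called 2 of 19, both higher in neuroblastoma (Nectin3 2.79, and Vsig4, a complement receptor that inhibits T cells, 5.17). The list of ATP and adenosine handling called 4 of 25, with the ADP receptor P2ry13 at 2.33 and adenosine kinase Adk at -1.31. The costimulatory list called 2 of 12 (Cd24a 1.12, Tnfrsf1b -0.95), and the lymphocyte partners 2 of 7 (Pdcd1 -2.85, Cd28 -2.56). TNFR1 loss in A and the Myd88 cKO in C called none of the genes of these 6 lists (0.182% and 0.0182% of all genes). The shares of all genes called were 1.44% between hosts and 14.7% between tumour models. They were 4.67% for the Myd88 cKO in A and 1.09% for TNFR1 loss in C. Counts near these shares are not read as changes of a list. The inhibitory, adenosine and costimulatory counts between tumour models are of this kind, and counts of 1 gene carry little weight.

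The genes whose signal ran most like a member over the 16 sorted arrays were F7 and Dhrs3 for Pdcd1lg2 (r = 0.98 each), Sgk1 (0.94) and Pdpn (0.93) for Nt5e, F630111L10Rik and Antxr2 for Cd80 (0.97 each), Dennd1a (0.97) and Atf3 (0.96) for Cd86, and Tmem243 (0.97) and Pld4 (0.96) for Cd40. For Cd274 and Lgals9 the highest r was lower, with Acadl and Arhgap9 at 0.89 and Ost4 at 0.85. These correlations are descriptions over 8 groups of 2 arrays.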

How the data were processed

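Per the submitters' processing notes, the deposited values are log2 signals that the authors made with RMA in Affymetrix Expression Console 1.1, from 100 ng of RNA per array per the labels. No source used here names a genome build. RMA was run apart for the experiments as far as the array medians show, so tests stay within an experiment. The members and gene lists were chosen with earlier results of these data known.

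Symbols were updated through Entrez numbers. Genes above the 40th percentile of probe sets in as many arrays as the smallest group were tested (12577 in the tumour models, 11915 in the Myd88 experiment, 16524 sorted) with limma 3.58.1 in R 4.3.3, after checks on simulated data. Adjusted p-values are Benjamini-Hochberg over all of these. The sorted fit had 8 groups and 16 arrays, and the number of arrays limits the precision. Besides the 10 members, each list's counts and up to 2 called genes of smallest p per comparison are named, with further markers as context, and for each member up to 2 genes of highest r. Alternatives covered the filter, probe sets, normalization, variance model, replicate block and each array left out. Samples with the same replicate number did not all deviate together (correlations from -0.25 to 0.23 in the bead-enriched experiments; between A and C 0.24 in WT, 0.03 in TNFR1-/- and in the Myd88 cKO, and -0.20 in the double KO; up to 0.26 between genotypes in C), so numbers were not treated as pairs.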

Additional observations from a re-analysis of the deposited data

Results flagged for a closer look

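Lgals9 on array 1 of the WT hosts, at 8.15, stood far above the other 4 WT arrays (7.41 to 7.55). It was 1 of 20 checks of a member in a group of 5 arrays, and the rule used marks about 1 in 20 groups by chance. Nt5e in the double KO lay above WT in population A and below WT in population C on all arrays, with 2 arrays per group. Groups this small can easily fail to overlap. The difference between these effects was 0.82 ± 0.26, with an unadjusted p of 0.00755 and an adjusted p of 0.334 (limma over all genes), so it did not pass the test.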

How the results depend on the processing

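In the tumour models 0 members were called with a replicate block (Entpd1 0.68, adjusted p = 0.0775) and 0 with the second brightest probe set of each member, an alternative chosen after seeing the data. In the Myd88 hosts 2 members were called with the replicate block (Icosl -0.53, adjusted p = 0.0444) and 2 with an intensity trend and robust moderation (Icosl, adjusted p = 0.0498), and 0 with the second probe sets. The replicate block raised double KO minus WT in A to 1 member (Cd80 1.08, adjusted p = 0.0466) and added Icosl between A and C (adjusted p = 0.0478). It changed no other member's call. Of the arrays, 2 of 6 and 3 of 10 correlated best with their own number. The A minus C contrast in WT arrays alone called 3 members. In fits of 1 population alone TNFR1 loss in C called 2 members and the Myd88 cKO in A 0. A second quantile normalization turned Lgals9 between A and C to 0.21, and the cause was not tested.

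With 1 array left out, the tumour models called 0 to 2 members and the Myd88 hosts 1 to 3. The members called numbered 6 to 8 between A and C, 0 to 1 for TNFR1 loss in A and in C, 1 to 3 for the Myd88 cKO in A, and 0 to 3 for the double KO in A (without double KO array 2, 3: Cd80, Cd40 -1.41 and Entpd1). They were 0 in each of the other 4 comparisons. A lone array of a group was assumed to vary like the other groups.

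Over all genes tested, the second quantile normalization moved the share called higher from 64.5% to 49.7% in the tumour models, from 34.2% to 44.3% between A and C, from 89.8% to 70.1% for the Myd88 cKO in A, and from 75.3% to 59.7% and 56.9% to 40.7% for the double KO in A and C. It shifted the median over all genes in the tumour models from -0.01 to -0.12. In the fits behind the members, the count of all genes called fell from 772 to 37 for the Myd88 cKO and from 950 to 0 for the double KO in A when A was fitted alone, and rose from 180 to 466 for TNFR1 loss and from 51 to 209 for the double KO in C when C was fitted alone. TNFR1 loss in A went from 30 to 122 with the quantile normalization, 12 with the block and 0 in A alone. The Myd88 cKO in A went to 509 with the quantile normalization, and the Myd88 cKO in C from 3 to 31 in C alone. Few arrays per group limit what these fits could detect.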
